A study of Mus musculus with 26 samples.

Results

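Stroke was compared with a sham operation in the cortex of C57BL/6J mice, a common inbred strain, that had been kept for 6 weeks on a control diet with 6% of its calories from fat. The comparison was chosen by the labels alone: it takes the 4 libraries labelled stroke, control diet and 6 weeks and the 3 labelled sham, control diet and 6 weeks, 7 of the 26 libraries of the series. Each library held total RNA of cortex. Stroke mice were killed 3 days after the stroke, and their tissue spanned the stroke core and a rim around it; the labels give no separate day for sham mice. The other 19 libraries (a diet with 60% of calories from fat, or 15 weeks of diet) entered the fit to estimate the spread, and the high-fat pair at 6 weeks, 6 stroke and 3 sham libraries, served for 1 comparison. Replicate numbers follow the order of the samples and only name a library. The labels do not say that each library is a separate mouse, so p-values reflect only how far these libraries spread, which may be technical.

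After a stroke, dying neurons release nucleic acids, lipids and proteins that local microglia sense through pattern recognition receptors. Microglia and astrocytes around the core become reactive, secrete chemokines and cytokines and draw in monocytes and other leukocytes from the blood. In the first days phagocytes multiply and clear debris, astrocytes build filament-rich processes towards the lesion border, and vessels and matrix are remodelled. Bulk RNA holds all these cells at once, and a change in the number of cells of a type cannot be told apart from a change of RNA per cell.

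Levels are given as CPM, a gene's counts relative to all gene counts of the library after TMM scaling, in the order of the replicates, and fold changes as log2 with their standard error (SE). Stroke cortex had many genes at much higher levels and fewer genes at slightly lower levels than sham cortex. Of 16325 genes tested, 1253 were called (7.68%), 833 higher (5.1%) and 420 lower (2.57%), by edgeR's quasi-likelihood test at a Benjamini-Hochberg adjusted p below 0.05. Genes called higher had a median log2 fold change of 1.58, and 574 of them (3.52% of tested genes) differed at least 2-fold. Genes called lower had a median of -0.37, and 18 of them (0.11%) differed at least 2-fold. The median over all tested genes was 0.00. Genes called higher took 2.19 ± 0.398% of gene counts in stroke libraries (SD, n = 4) and 1.15 ± 0.008% in sham libraries (SD, n = 3), while genes called lower took 4.37 ± 0.212% in stroke and 5.73 ± 0.125% in sham libraries. All 4 stroke libraries lay above all 3 sham libraries for 822 of the 833 and below them for 407 of the 420, against 14.9% and 11.6% of all tested genes without overlap in those directions. The genes were called from these same libraries, so their separation follows largely from the calling and is no further support.

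**Figure D1:**
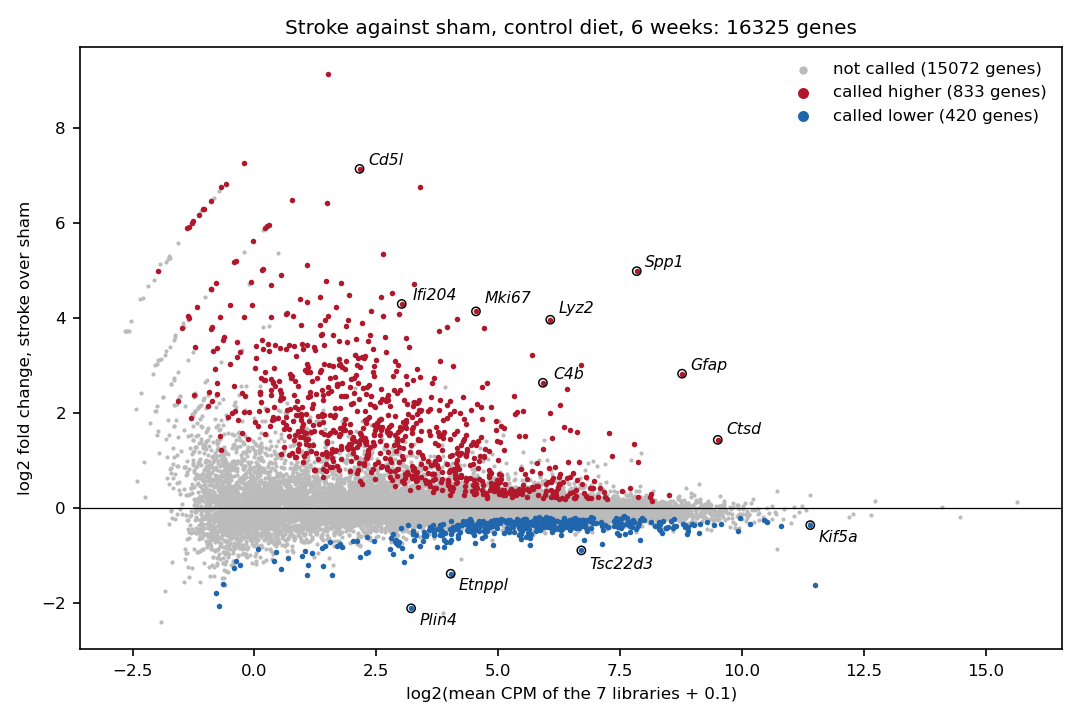
Log2 fold change of stroke over sham for each of 16325 tested genes (vertical axis) against the log2 of its mean CPM over the 7 libraries plus 0.1 (horizontal axis), with 833 genes called higher in red, 420 called lower in blue and the rest in grey. Fold changes of the genes called higher reach far above those of the genes called lower, and the labelled Gfap and Ctsd rose although they were well counted in sham cortex.

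The number of calls depended on single libraries. Leaving out sham replicate 1, 2 or 3 left 303, 324 or 465 calls, and leaving out stroke replicate 1, 2, 3 or 4 gave 1055, 345, 623 or 1448. None of the 1253 called genes changed sign in any of these 7 fits. For most of them the groups did not overlap, so leaving out 1 library could hardly turn the sign, and this adds no support. In all 7 fits, 133 genes called higher and 52 called lower passed. Over all genes the single fits called 189 to 938 higher and 84 to 510 lower. List counts from these fits, given below, are to be read beside those totals. The share of counts outside genes lay between 25.8% and 31.8% in stroke libraries and between 33.1% and 35.8% in sham libraries, and with it as a covariate 316 genes were called higher and 218 lower. Depth ran from 11400882 to 15800117 gene counts per library, so that 3 counts, the most that a count of 0 allows, stood at 0.19 to 0.263 CPM. Such limits cover counting error only.

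The 4 stroke libraries were not equally far from sham. Along the first principal component, with 62.7% of the variance, the 7 libraries were placed with stroke replicates 2 and 3 at 48.1 and 35.9, replicates 1 and 4 at 21.3 and 11.1, and the sham libraries between -39.7 and -38.1. Stroke replicate 2 was the highest stroke library for 638 of the 833 genes called higher, and replicate 4 the lowest for 521. Of 60 gene lists, 42 had a mean log2 CPM that was higher in all 4 stroke libraries than in all 3 sham libraries, and in 29 of the 42 the stroke libraries stood in the order 2, 3, 1, 4 from highest to lowest. For 2 lists, homeostatic astrocyte and excitatory neuron genes, the mean was lower in all 4 stroke libraries than in all 3 sham libraries. Striatal genes, which mark tissue below the cortex, varied between libraries of both groups: the adenosine receptor gene Adora2a had 12.7, 33, 29.2 and 19.5 CPM in stroke libraries against 7.89, 9.44 and 27.3 CPM in sham libraries. Their summed level was 604 to 1258 CPM in stroke and 493 to 1051 CPM in sham libraries, and their part in the order of the stroke libraries was not tested. The 2 groups overlapped for striatal genes, and edgeR called none of the 12 tested, with 0 at an unadjusted p below 0.05 and 0 by DESeq2 or by limma with voom.

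**Figure D2:**
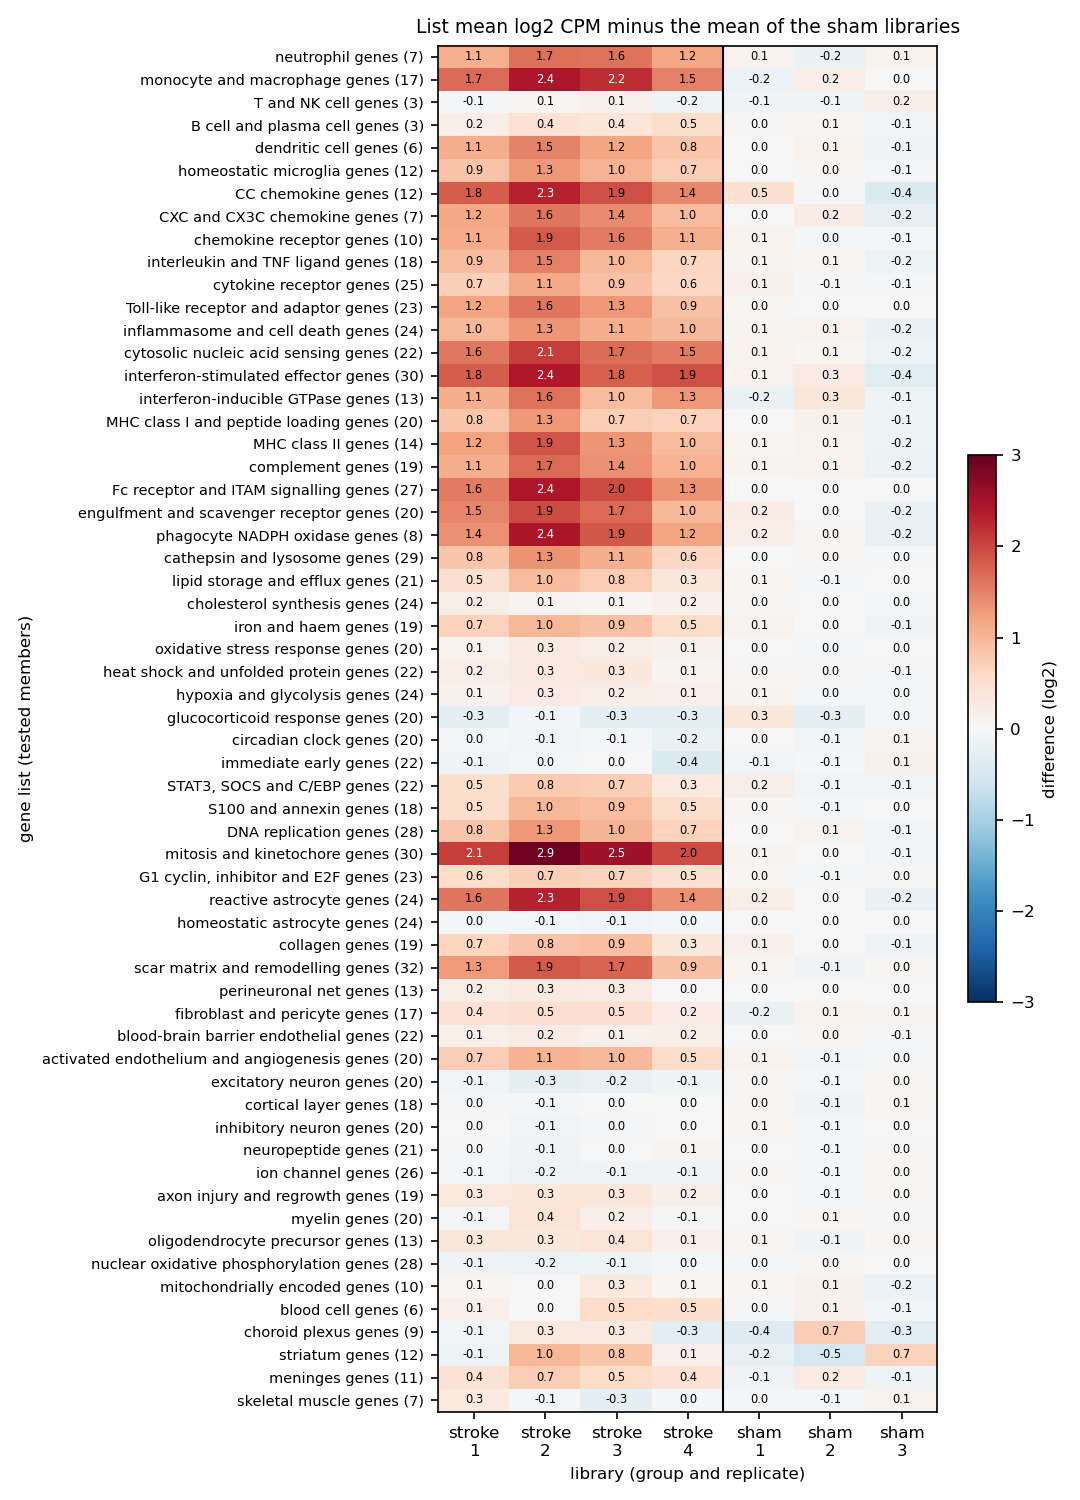
Mean log2 CPM of the tested members of each of 60 gene lists, as a difference from the mean of the 3 sham libraries, in the 4 stroke libraries (left) and the 3 sham libraries (right), with the number of tested members in brackets. Lists of phagocyte, interferon, division and reactive astrocyte genes were higher in every stroke library, most of all in replicate 2, whereas neuron, myelin and mitochondrial lists stayed near the sham mean.

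Genes of microglia, the resident macrophages of the brain, were higher after stroke. Homeostatic genes are those of resting microglia. Of 12 tested, 10 were called higher and none lower, with a median log2 fold change of 0.79, against 5.1% of all genes called higher. The shares of all genes, 5.1% higher and 2.57% lower, stand beside every list count of the main fit below. P2ry12, a purinergic receptor that guides microglial processes, had 56.4, 69.7, 67.3 and 58.1 CPM in stroke libraries against 36.8, 37.7 and 35.1 CPM in sham libraries. The groups did not overlap, and the stroke libraries lay close together (log2 fold change 0.78 ± 0.12, adjusted p = 0.00227). Gpr34, a receptor for lysophosphatidylserine, had 26.6, 37.4, 37.6 and 26.8 CPM in stroke libraries against 14, 16 and 15.1 CPM in sham libraries, with all stroke libraries above all sham libraries (log2 fold change 1.09 ± 0.20, adjusted p = 0.00353). Olfml3, a secreted matrix protein gene of microglia, had 59.7, 98.6, 66.8 and 45.7 CPM in stroke libraries against 16.1, 16.8 and 16.1 CPM in sham libraries. Replicate 2 was highest and replicate 4 lowest, still more than 2 times the highest sham library (log2 fold change 2.05 ± 0.36, adjusted p = 0.00345). Tmem119 and Cx3cr1, a microglial membrane protein and the fractalkine receptor, had log2 fold changes of 0.80 ± 0.23 and 0.96 ± 0.24. With 1 library left out at a time, P2ry12, Gpr34 and Olfml3 kept their calls throughout, while Tmem119, Cx3cr1 and Siglech lost theirs in 1 to 5 of the 7, with a largest adjusted p between 0.0583 and 0.133, reached without sham replicate 3 or stroke replicate 2. Tmem119 passed in 2 of the 7. Without 1 library the number of the 12 genes called higher lay between 4 and 10.

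Some genes of monocytes and macrophages were higher after stroke. Of 17 tested, 6 were called higher and none lower (median log2 fold change 2.78), beside 5.1% of all genes called higher. Ccr2, the receptor by which monocytes leave the bone marrow and enter tissue, had 3.94, 10.9, 6.34 and 2.76 CPM in stroke libraries against 0.484, 0.699 and 0.388 CPM in sham libraries. Replicate 2 had the highest value and replicate 4 the lowest, and every stroke library exceeded every sham library (log2 fold change 3.50 ± 0.96, adjusted p = 0.029). Plac8, a gene of classical monocytes, had 109 counts in the 4 stroke libraries and 1 in the 3 sham libraries, and Ms4a4c, of the same cells, had 113 counts in the 4 stroke libraries and 3 in the 3 sham libraries. Ms4a6d, a membrane protein gene of macrophages, had 7.1, 17.1, 13.9 and 6.45 CPM in stroke libraries against 2.14, 1.75 and 0.971 CPM in sham libraries (log2 fold change 2.78 ± 0.74, adjusted p = 0.0267). When each library in turn was left out, Plac8 kept its call throughout, while Ccr2, Ms4a4c and Ms4a6d lost theirs in 3 to 5 of the 7, with a largest adjusted p between 0.0732 and 0.112, reached without sham replicate 1 or sham replicate 3. Ccr2 and Ms4a6d passed in 2 of the 7. The count of monocyte genes called higher then lay between 1 and 7. Ly6c2, a surface marker of classical monocytes, had 38 counts in the 4 stroke libraries and 1 in the 3 sham libraries and did not pass (adjusted p = 0.117).

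Defining markers of other leukocytes had few or no counts. Of the neutrophil markers, Ly6g had no count in any of the 7 libraries and Mpo had 2 counts in stroke and 0 in sham libraries. S100a8, a calcium-binding protein gene of neutrophils, had 0.422, 0.382, 0.969 and 0.329 CPM in stroke libraries against 0.0692, 0 and 0.194 CPM in sham libraries and was not called (adjusted p = 0.207). None of the 7 neutrophil genes tested was called by edgeR, while 4 were higher at an unadjusted p below 0.05, DESeq2 and voom called 3 each and edgeR without stroke replicate 4 called 1. Their list mean was 1.06, 1.65, 1.64 and 1.16 log2 units above the sham mean in stroke replicates 1 to 4, without overlap. The T cell receptor complex genes Cd3d, Cd3e and Cd3g had 5, 1 and 1 counts in the 4 stroke libraries and 0, 0 and 3 in the 3 sham libraries. The B cell genes Ms4a1 and Cd79a had 1 and 3 counts in stroke and 1 and 2 in sham libraries. Differences at these levels were not detectable at this depth. Trbc2, a constant region of the T cell receptor, was called lower, with 8.09, 7.07, 7.4 and 7.83 CPM in stroke libraries against 11.3, 14.2 and 10.9 CPM in sham libraries (log2 fold change -0.67 ± 0.21, adjusted p = 0.0498), while the other T cell receptor genes stood at or near 0. Of dendritic cell genes, Cst7, Itgax and Siglech were called among 6 tested, all of which microglia can also express. Cst7, an inhibitor of lysosomal proteases, had 4.5, 7.39, 4.4 and 1.97 CPM in stroke libraries against 0.208, 0.14 and 0.129 CPM in sham libraries (log2 fold change 4.78 ± 0.93, adjusted p = 0.00541). In the 7 fits without 1 library, Cst7 kept its call throughout, while Trbc2, Itgax and Siglech lost theirs in 1 to 7 of the 7, with a largest adjusted p between 0.0583 and 0.197, reached without sham replicate 1, sham replicate 2 or sham replicate 3. Trbc2 passed in 0 of the 7.

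Receptors that sense antibodies and debris, and the kinases behind them, were higher: 19 of 27 Fc receptor and ITAM signalling genes tested were called higher and none lower, with a median log2 fold change of 1.97. Clec7a, the receptor for fungal glucans that phagocytes display in injured brain, had 8.58, 17.1, 11 and 3.55 CPM in stroke libraries against 0.346, 0.629 and 0.388 CPM in sham libraries. Replicate 4 was the lowest stroke library and still exceeded the sham libraries (log2 fold change 4.45 ± 0.78, adjusted p = 0.00345). The IgG receptor genes Fcgr1, Fcgr2b and Fcgr4 had log2 fold changes of 2.48 ± 0.48, 2.27 ± 0.45 and 4.05 ± 0.86. Fcgr2b, the inhibitory receptor among them, had 10.3, 17, 12.9 and 10.3 CPM in stroke libraries against 2.77, 2.8 and 2.27 CPM in sham libraries, so activating and inhibitory receptor genes were both higher. Over the fits that each lacked 1 library, Clec7a, Fcgr1 and Fcgr2b kept their calls throughout, while Fcgr4 lost its call in 1 of the 7, with a largest adjusted p of 0.0534, without sham replicate 3. The count of the list lay between 3 and 19 in those fits, lowest without sham replicate 3.

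Genes of scavenger receptors and of the oxidative burst were higher in part. Mertk, Axl and Tyro3, receptors that bind apoptotic cells through bridging proteins, were not called. Of 20 engulfment genes, edgeR called 9 higher and none lower, beside 5.1% of all genes called higher. DESeq2 and voom each called 1 of them lower. Msr1, a scavenger receptor for modified lipoproteins, had 6.96, 21, 14.4 and 4.94 CPM in stroke libraries against 0.623, 0.839 and 0.0647 CPM in sham libraries (log2 fold change 4.54 ± 1.08, adjusted p = 0.0149). Lgals3, a galectin of activated phagocytes, had 13.1, 30.0, 16.7 and 5.86 CPM in stroke libraries against 1.04, 0.49 and 0.324 CPM in sham libraries. In both genes replicate 2 was highest and replicate 4 lowest, with no overlap with sham. Mertk, Axl and Tyro3 had log2 fold changes of -0.05 ± 0.10, 0.44 ± 0.22 and -0.28 ± 0.10 and did not pass. Pros1, a bridging protein that binds them, was called higher, with 35.7, 58, 48 and 29.1 CPM in stroke libraries against 17.4, 15.2 and 15.4 CPM in sham libraries (log2 fold change 1.41 ± 0.35, adjusted p = 0.0174). Mertk, Axl, Tyro3 and Pros1 are named after their values were seen. Apoe, the main lipid carrier of the brain, had 1056, 1028, 1011 and 1061 CPM in stroke libraries against 1146, 1166 and 1090.3 CPM in sham libraries and did not pass (adjusted p = 0.631). Of 8 genes of the phagocyte NADPH oxidase, 5 were called higher. Cybb, its catalytic subunit, had 7.03, 16.4, 11.8 and 5.66 CPM in stroke libraries against 0.692, 0.839 and 0.324 CPM in sham libraries (log2 fold change 4.04 ± 0.85, adjusted p = 0.00833), and Cyba, its membrane partner, had a log2 fold change of 2.15 ± 0.57. Under the omission of single libraries, Cybb kept its call throughout, while Msr1, Lgals3, Pros1 and Cyba lost theirs in 4 of the 7, with a largest adjusted p between 0.0741 and 0.106, reached without sham replicate 2 or sham replicate 3. Lgals3 had a log2 fold change of 5.32 without sham replicate 1. Counts of engulfment and oxidase genes lay between 1 and 9 and between 1 and 6.

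Among 29 cathepsin and lysosome genes, 10 were called higher and none lower (median log2 fold change 0.88), beside 5.1% of all genes called higher. Lyz2, lysozyme of myeloid cells, had 71.7, 188, 141 and 47.7 CPM in stroke libraries against 6.57, 7.41 and 7.44 CPM in sham libraries (log2 fold change 3.97 ± 0.85, adjusted p = 0.0086). Ctsd, a lysosomal aspartic protease that neurons and glia also express, had 863, 1462, 1037 and 627 CPM in stroke libraries against 363, 378 and 362 CPM in sham libraries, and its stroke libraries lay above all sham libraries (log2 fold change 1.44 ± 0.41, adjusted p = 0.036). The protease genes Ctss and Ctsc had log2 fold changes of 1.59 ± 0.39 and 2.13 ± 0.47. Psap and Cst3, prosaposin and cystatin C, did not pass, with log2 fold changes of 0.10 ± 0.08 and -0.13 ± 0.10. Across the 7 fits with 6 libraries of the comparison, Lyz2, Ctsd, Ctss and Ctsc lost their calls in 2 to 5 of the 7, with a largest adjusted p between 0.052 and 0.128, reached without sham replicate 1 or stroke replicate 2. Ctsd passed in 2 of the 7. The count of lysosome genes lay between 1 and 12.

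Several chemokines that attract monocytes were higher after stroke. Of 12 CC chemokine genes tested, 7 were called higher and none lower (median log2 fold change 2.45). Ccl12, a mouse ligand of CCR2, had 5.63, 8.41, 4.76 and 4.94 CPM in stroke libraries against 0.484, 0.56 and 0.194 CPM in sham libraries. Every stroke library exceeded every sham library (log2 fold change 3.84 ± 0.64, adjusted p = 0.00289). Ccl3, a chemokine made by activated microglia, had 2.53, 3.44, 2.82 and 1.18 CPM in stroke libraries against 0.208, 0.14 and 0.0647 CPM in sham libraries. Ccl4, another chemokine of these cells, had 2.32, 3.18, 1.32 and 0.987 CPM in stroke libraries against 0.138, 0.21 and 0 CPM in sham libraries. The 2 genes had log2 fold changes of 4.11 ± 0.68 and 4.02 ± 0.82, and Ccl8 had 68 counts in the 4 stroke libraries and 3 in the 3 sham libraries. Ccl27a, an epithelial chemokine also present in brain, had 57.6, 48.2, 48.8 and 58.5 CPM in stroke libraries against 69.2, 72.4 and 65 CPM in sham libraries and did not pass (adjusted p = 0.064). Of 7 CXC and CX3C chemokine genes, Cxcl10 and Cxcl16 were called higher. Cxcl10, an interferon-induced ligand of CXCR3, had 3.66, 11.1, 5.2 and 4.48 CPM in stroke libraries against 0.415, 0.699 and 0.0647 CPM in sham libraries (log2 fold change 3.96 ± 0.91, adjusted p = 0.0126). With 1 library left out at a time, Ccl12, Ccl3, Ccl4 and Ccl8 kept their calls throughout, while Cxcl10 and Cxcl16 lost theirs in 3 to 4 of the 7, with a largest adjusted p between 0.067 and 0.0992, reached without sham replicate 3 or stroke replicate 2. Ccl4 had a log2 fold change of 4.70 without sham replicate 2. Cxcl10 had a log2 fold change of 4.65 without sham replicate 2. The count of CC chemokine genes lay between 4 and 7.

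Some receptor and cytokine genes were higher as well, beside 5.1% of all genes called higher. Of 10 chemokine receptor genes, 4 were called higher, among them Cx3cr1, Ccr2 and Ackr1. Ackr1, a chemokine-binding receptor of venules, had 11.1, 14.1, 8.45 and 13 CPM in stroke libraries against 8.23, 6.09 and 7.57 CPM in sham libraries. Of 18 interleukin and TNF ligand genes, 7 were called higher. Lif, a cytokine that acts on astrocytes through gp130, had 0.774, 2.93, 2.03 and 1.05 CPM in stroke libraries against 0.277, 0.14 and 0.259 CPM in sham libraries. Replicates 2 and 3 were the highest, and no stroke library reached down to sham (log2 fold change 2.86 ± 0.59, adjusted p = 0.00651). Il15, which sustains lymphocytes, had 1.83, 1.91, 2.55 and 1.71 CPM in stroke libraries against 0.761, 1.12 and 0.841 CPM in sham libraries (log2 fold change 1.13 ± 0.22, adjusted p = 0.00524), and Il1a and Clcf1 had log2 fold changes of 1.62 ± 0.39 and 2.79 ± 0.66. Il33, an alarmin of glia, had 88.3, 136, 98.9 and 73.2 CPM in stroke libraries against 69.6, 68.9 and 68.5 CPM in sham libraries and did not pass (adjusted p = 0.215). Of 25 cytokine receptor genes, 7 were called higher, among them Csf1r, the receptor that keeps microglia alive, with 114, 149.7, 139 and 107 CPM in stroke libraries against 68, 64.8 and 61.7 CPM in sham libraries (log2 fold change 0.97 ± 0.26, adjusted p = 0.027). When each library in turn was left out, Lif and Il15 kept their calls throughout, while Ackr1, Il1a, Clcf1 and Csf1r lost theirs in 3 to 6 of the 7, with a largest adjusted p between 0.0757 and 0.206, reached without sham replicate 2 or sham replicate 3. Ackr1 passed in 1 and Csf1r in 2 of the 7. The count of cytokine receptor genes lay between 0 and 11, and that of ligands between 2 and 7.

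Innate sensors of microbial and self molecules were higher in part. Of 23 Toll-like receptor and adaptor genes, 12 were called higher (median log2 fold change 1.25). Tlr2, a receptor for lipoproteins and damage signals, had 9.21, 15.8, 10.7 and 5.73 CPM in stroke libraries against 0.623, 1.05 and 0.841 CPM in sham libraries, an increase shared by all 4 libraries (log2 fold change 3.61 ± 0.68, adjusted p = 0.00488). Ly86 had 35.2, 65.9, 41.6 and 28.4 CPM in stroke libraries against 7.4, 7.41 and 5.83 CPM in sham libraries. Cd180, its partner in a receptor complex of B cells and myeloid cells, had 5.42, 8.34, 9.95 and 3.69 CPM in stroke libraries against 0.968, 0.839 and 0.453 CPM in sham libraries. Their log2 fold changes were 2.64 ± 0.42 and 3.17 ± 0.62. Irak1, a kinase behind these receptors, had a log2 fold change of 0.09 ± 0.10 and did not pass. Of 24 inflammasome and cell death genes, 10 were called higher. Pycard, the adaptor ASC that nucleates inflammasomes, had 8.44, 14.4, 9.6 and 7.18 CPM in stroke libraries against 1.8, 2.1 and 2.01 CPM in sham libraries (log2 fold change 2.33 ± 0.44, adjusted p = 0.00471). Zbp1, a sensor of Z-form nucleic acids upstream of necroptosis, had 4.85, 7.77, 4.58 and 5.33 CPM in stroke libraries against 0.484, 0.0699 and 0.0647 CPM in sham libraries, with sham replicate 1 the highest of the sham libraries. Casp8 and Casp4, an initiator and an inflammatory caspase, had log2 fold changes of 1.75 ± 0.44 and 1.76 ± 0.47. In the 7 fits without 1 library, Tlr2, Ly86, Cd180, Pycard and Zbp1 kept their calls throughout, while Casp8 and Casp4 lost theirs in 4 to 5 of the 7, with a largest adjusted p between 0.0958 and 0.118, reached without sham replicate 1 or sham replicate 3. Casp4 passed in 2 of the 7. Zbp1 had a log2 fold change of 6.22 without sham replicate 1. Counts lay between 3 and 13 for the Toll-like list and between 2 and 10 for the inflammasome list.

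Interferon-stimulated genes are switched on by factors that bind a response element in their promoters. The core of that element was searched as GAAANNGAA or TTCNNTTTC, its reverse complement, in windows of 300 bases (250 before to 50 after the start), from RefSeq on GRCm38.p6. The promoters below are examples, all from genes called higher, that hold 3 matches or, for Irgm1, 2 that overlap, and capitals mark each match.
Isg15 (chr4:156200769-156201068, minus strand): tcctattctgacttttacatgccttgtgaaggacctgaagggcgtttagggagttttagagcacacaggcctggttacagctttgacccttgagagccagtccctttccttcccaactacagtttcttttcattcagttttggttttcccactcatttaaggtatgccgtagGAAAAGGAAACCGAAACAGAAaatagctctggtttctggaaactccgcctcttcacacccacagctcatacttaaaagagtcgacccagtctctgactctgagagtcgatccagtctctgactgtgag
Ifit1 (chr19:34640639-34640938, plus strand): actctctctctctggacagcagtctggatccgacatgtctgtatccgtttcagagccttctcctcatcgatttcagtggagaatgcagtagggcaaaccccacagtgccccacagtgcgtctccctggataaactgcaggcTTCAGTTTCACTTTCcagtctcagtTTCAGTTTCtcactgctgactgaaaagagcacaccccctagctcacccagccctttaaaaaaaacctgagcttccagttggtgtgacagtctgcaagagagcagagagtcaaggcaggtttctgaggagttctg
Ifit3 (chr19:34583279-34583578, plus strand): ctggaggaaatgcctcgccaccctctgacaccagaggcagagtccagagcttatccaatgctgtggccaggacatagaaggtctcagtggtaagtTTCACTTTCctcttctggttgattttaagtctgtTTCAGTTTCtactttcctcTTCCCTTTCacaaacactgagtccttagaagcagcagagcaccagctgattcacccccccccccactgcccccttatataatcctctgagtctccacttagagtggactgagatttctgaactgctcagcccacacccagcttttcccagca
Irgm1 (chr11:48871371-48871670, minus strand): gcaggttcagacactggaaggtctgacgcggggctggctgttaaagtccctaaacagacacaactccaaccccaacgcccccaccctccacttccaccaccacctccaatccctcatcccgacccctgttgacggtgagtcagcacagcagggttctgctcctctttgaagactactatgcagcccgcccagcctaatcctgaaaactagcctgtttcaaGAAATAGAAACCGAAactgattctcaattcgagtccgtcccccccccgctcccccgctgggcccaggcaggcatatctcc
In Isg15 the matches began 78, 72 and 66 bases before the start and overlapped each other, and in Ifit1 they began 109, 103 and 84 bases before it. Ifit3 had them 155, 121 and 102 bases before the start, and Irgm1 30 and 24 bases before it. Of 36 genes called higher in the interferon and nucleic acid sensing lists that have a promoter in the table, 25 held a match (69.4%), against 6 of 14 members that were not called (42.9%) and 8.78% of 11978 tested genes. A match is a description of letters and not a binding site.

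Those 4 genes were picked for their promoters from among genes already called higher, so their being higher after stroke was set by the choice. Isg15, a ubiquitin-like protein, had 3.24, 4.52, 3.52 and 3.49 CPM in stroke libraries against 0.761, 0.56 and 0.324 CPM in sham libraries (log2 fold change 2.75 ± 0.69, adjusted p = 0.0191). Ifit1, an RNA-binding antiviral protein gene, had 22.4, 35.3, 23.9 and 27.5 CPM in stroke libraries against 7.13, 8.74 and 4.6 CPM in sham libraries (log2 fold change 2.01 ± 0.55, adjusted p = 0.03). Ifit3, its partner, had 39.9, 64.8, 40.9 and 52.5 CPM in stroke libraries against 17.2, 20.0 and 9.06 CPM in sham libraries (log2 fold change 1.69 ± 0.46, adjusted p = 0.0279), and since Ifit3 and Ifit3b are near-identical copies, reads may be split between them. Irgm1, a GTPase that regulates lysosomes and autophagy, had 31.3, 47.4, 33.4 and 35.2 CPM in stroke libraries against 15.8, 17.5 and 14.6 CPM in sham libraries (log2 fold change 1.21 ± 0.36, adjusted p = 0.0435). In none of the 4 did a stroke library reach down to a sham library. Over the fits that each lacked 1 library, Isg15, Ifit1, Ifit3 and Irgm1 lost their calls in 4 to 7 of the 7, with a largest adjusted p between 0.0949 and 0.143, reached without sham replicate 3. Irgm1 passed in 0 and Ifit1 in 2 of the 7.

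Over the lists, 25 of 30 interferon-stimulated effector genes, 15 of 22 nucleic acid sensing genes and 8 of 13 interferon-inducible GTPase genes were called higher, none of them lower. The median log2 fold changes were 2.22, 1.66 and 1.21. The effector list stood 1.81, 2.41, 1.80 and 1.93 log2 units above the sham mean in stroke replicates 1 to 4, so replicate 4, the lowest library for most phagocyte lists, was second here. Ifi27l2a, a small interferon-induced membrane protein, had 9.07, 24.1, 9.42 and 13.8 CPM in stroke libraries against 1.45, 1.4 and 0.712 CPM in sham libraries, again with replicates 2 and 4 highest (log2 fold change 3.58 ± 0.69, adjusted p = 0.00575). Mx1, a GTPase against RNA viruses, had 6.75, 8.47, 5.37 and 5.86 CPM in stroke libraries against 0.761, 1.12 and 0.259 CPM in sham libraries (log2 fold change 3.22 ± 0.62, adjusted p = 0.00541). Oas2, which makes the activator of RNase L, had 1.97, 2.74, 2.99 and 2.44 CPM in stroke libraries against 0.277, 0.21 and 0.194 CPM in sham libraries. Ifi204, a cytosolic DNA sensor of the mouse p200 family, had 13, 18.1, 13.6 and 9.35 CPM in stroke libraries against 0.761, 0.629 and 0.647 CPM in sham libraries. Ifi209, of the same gene cluster, had 4.22, 7.71, 4.67 and 4.28 CPM in stroke libraries against 0.346, 0.21 and 0.259 CPM in sham libraries. The p200 genes are close copies, so their counts are uncertain one by one. Gbp3, a guanylate-binding protein gene, had 24.8, 39.9, 23.1 and 26.8 CPM in stroke libraries against 7.4, 9.23 and 6.73 CPM in sham libraries (log2 fold change 1.88 ± 0.40, adjusted p = 0.00833). Under the omission of single libraries, Ifi27l2a, Mx1, Oas2, Ifi204, Ifi209 and Gbp3 kept their calls throughout, while Iigp1 lost its call in 3 of the 7, with a largest adjusted p of 0.0819, without sham replicate 3. The numbers called higher without 1 library lay between 5 and 24, 3 and 15, and 1 and 4.

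Antigen presentation and complement genes rose in part. Of 20 MHC class I and peptide loading genes, 7 were called higher, and of 14 class II genes 7 (median log2 fold changes 0.81 and 1.57). B2m, the shared light chain of class I molecules, had 183, 272, 199 and 188 CPM in stroke libraries against 99.3, 109 and 86.2 CPM in sham libraries (log2 fold change 1.10 ± 0.30, adjusted p = 0.0307). H2-K1, a heavy chain gene, had 53.7, 87, 47.5 and 52.9 CPM in stroke libraries against 27.8, 29.8 and 22.1 CPM in sham libraries. H2-D1, another, had 75, 119, 70.3 and 67.9 CPM in stroke libraries against 49.7, 52.9 and 41.2 CPM in sham libraries. These genes are close copies, so reads may be split between them. All stroke libraries exceeded all sham libraries for both, replicate 2 stood apart from the others, and neither gene passed (adjusted p = 0.0886 and 0.232). Cd86, a co-stimulatory ligand for T cells, had 5.7, 8.66, 9.42 and 6.25 CPM in stroke libraries against 3.32, 2.52 and 1.75 CPM in sham libraries (log2 fold change 1.57 ± 0.29, adjusted p = 0.00345). H2-Ab1, a class II chain gene, had 6.26, 11.7, 5.46 and 2.7 CPM in stroke libraries against 1.04, 1.19 and 0.583 CPM in sham libraries. Of 19 complement genes, 9 were called higher. C4b, which astrocytes and microglia express, had 72.9, 129, 108 and 68.1 CPM in stroke libraries against 17.1, 14.8 and 13.5 CPM in sham libraries (log2 fold change 2.64 ± 0.44, adjusted p = 0.00289), while C1qb and C3, of the initiating complex and the central component, had log2 fold changes of 1.72 ± 0.39 and 2.98 ± 0.71. Across the 7 fits with 6 libraries of the comparison, Cd86 and C4b kept their calls throughout, while B2m, H2-Ab1, C1qb, C3 and Psmb8 lost theirs in 4 to 5 of the 7, with a largest adjusted p between 0.061 and 0.127, reached without sham replicate 2 or sham replicate 3. B2m and Psmb8 passed in 2 of the 7. The counts lay between 0 and 10 for class I, 1 and 9 for class II and 1 and 10 for complement.

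**Figure D3:**
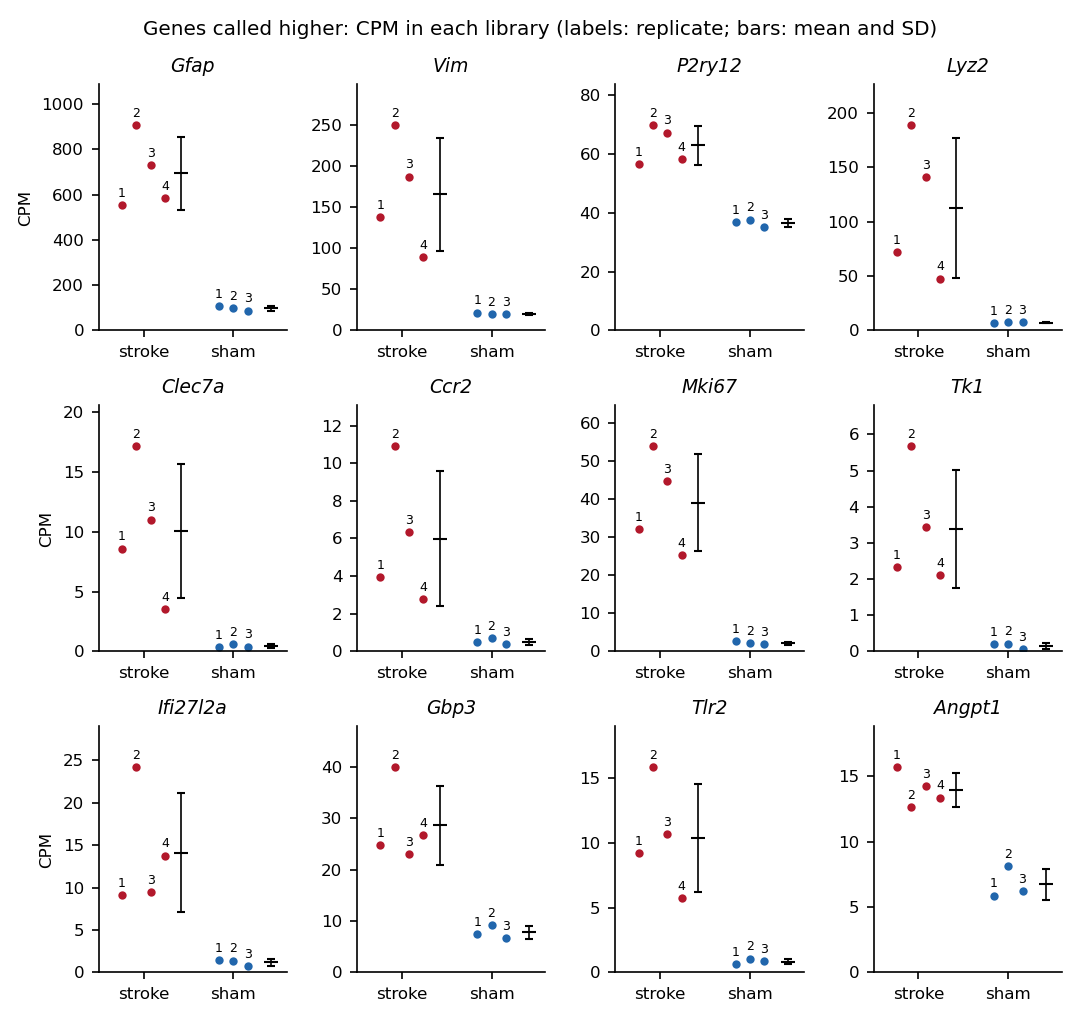
CPM of 12 genes called higher in each library, 4 stroke libraries (left, red) and 3 sham libraries (right, blue), with replicate numbers above the points and the mean and SD as black bars. Replicate 2 is the highest stroke library in 11 of the 12 panels, replicate 4 is the lowest for Vim, Lyz2, Clec7a, Ccr2, Mki67, Tk1 and Tlr2 but not for Ifi27l2a or Gbp3, and no stroke point reaches down to a sham point.

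Genes of mitosis were higher after stroke. Of 30 mitosis and kinetochore genes, 25 were called higher and none lower (median log2 fold change 2.79), and between 17 and 25 without 1 library, with 17 called in all 7 such fits. Mki67, the marker of cycling cells, had 32.1, 53.9, 44.8 and 25.3 CPM in stroke libraries against 2.63, 2.1 and 1.88 CPM in sham libraries (log2 fold change 4.15 ± 0.65, adjusted p = 0.00287). Cdk1, the kinase that starts mitosis, had 6.68, 12.2, 10.3 and 5.46 CPM in stroke libraries against 0.623, 0.21 and 0.583 CPM in sham libraries (log2 fold change 4.16 ± 0.67, adjusted p = 0.00287). Prc1, which bundles the spindle midzone, had 7.95, 20.1, 15.1 and 8.62 CPM in stroke libraries against 0.553, 1.4 and 0.324 CPM in sham libraries. Ndc80 and Cenpf, of the kinetochore, had log2 fold changes of 3.41 ± 0.54 and 3.40 ± 0.54. Every stroke library of these 5 genes exceeded every sham library, in the order 2, 3 and then 1 and 4. With 1 library left out at a time, Mki67, Cdk1, Prc1, Ndc80 and Cenpf kept their calls throughout. Prc1 had a log2 fold change of 4.86 without sham replicate 2.

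Of 28 DNA replication genes, 10 were called higher (median log2 fold change 0.74), and of 23 genes of G1 cyclins, inhibitors and E2F factors, 5 (median 0.29). The division lists were not tested against each other. Tk1, thymidine kinase of S phase, had 2.32, 5.67, 3.43 and 2.11 CPM in stroke libraries against 0.208, 0.21 and 0.0647 CPM in sham libraries (log2 fold change 4.35 ± 0.74, adjusted p = 0.00289). Rrm2, the regulated subunit of ribonucleotide reductase, had 6.05, 13.6, 8.89 and 5.73 CPM in stroke libraries against 0.553, 1.89 and 0.777 CPM in sham libraries. Mcm6, a subunit of the replicative helicase, had 21, 26.7, 22.2 and 18.9 CPM in stroke libraries against 7.19, 8.95 and 7.96 CPM in sham libraries (log2 fold change 1.46 ± 0.32, adjusted p = 0.00996). Pcna, the sliding clamp, had 44.5, 54.8, 47 and 47 CPM in stroke libraries against 43.2, 43.2 and 42.4 CPM in sham libraries, and Dnmt1, the maintenance DNA methyltransferase, had a log2 fold change of 0.20 ± 0.08. Neither passed. Ccnd1, the cyclin that carries growth signals into G1, had 81.6, 98.5, 83.2 and 63.7 CPM in stroke libraries against 43.8, 48.1 and 45.2 CPM in sham libraries (log2 fold change 0.84 ± 0.20, adjusted p = 0.0152), and E2f8 and Foxm1, factors of late cell cycle, had log2 fold changes of 2.64 ± 0.61 and 2.14 ± 0.51. When each library in turn was left out, Tk1 and Rrm2 kept their calls throughout, while Mcm6, Ccnd1, E2f8 and Foxm1 lost theirs in 1 to 4 of the 7, with a largest adjusted p between 0.0599 and 0.0782, reached without sham replicate 1 or sham replicate 2. Rrm2 had a log2 fold change of 3.66 without sham replicate 2. E2f8 had a log2 fold change of 3.32 without sham replicate 2. The counts lay between 2 and 11 for replication and between 0 and 5 for G1 genes.

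Promoters of the division genes were searched for E2F sites (TTTCCCGC, TTTGGCGC and their reverse complements GCGGGAAA and GCGCCAAA). Counted per gene with a promoter, a site stood in 3 of 33 genes called higher (9.09%), 11 of 31 members not called (35.5%) and 3.16% of 11978 tested genes. The 3 were those of Mcm3, Mcm6 and Cdc6. The Mcm6 promoter is shown because it alone of the 3 holds 2 sites before the start, 110 and 47 bases from it, in capitals.
Mcm6 (chr1:128359656-128359955, minus strand): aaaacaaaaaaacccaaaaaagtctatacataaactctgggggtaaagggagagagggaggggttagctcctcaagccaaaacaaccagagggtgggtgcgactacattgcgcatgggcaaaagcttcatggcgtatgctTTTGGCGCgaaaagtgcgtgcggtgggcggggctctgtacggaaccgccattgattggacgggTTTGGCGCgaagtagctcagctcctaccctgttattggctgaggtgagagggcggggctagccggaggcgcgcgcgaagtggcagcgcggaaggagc
A promoter without a match says only that these letters are not in the window. Called higher were 25 of 30 mitosis, 10 of 28 replication and 5 of 23 G1 genes. Members called and not called thus differed in kind, and the part of this in the shares with a site was not tested.

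Genes of reactive astrocytes were higher, and some genes of resting astrocytes were lower. Of 24 reactive astrocyte genes, 15 were called higher and 1, the intermediate filament gene Synm, lower (log2 fold change -0.24 ± 0.07, with groups that overlapped). Gfap, the main intermediate filament gene of astrocytes, had 554, 905, 730.1 and 584 CPM in stroke libraries against 108, 97.2 and 87.2 CPM in sham libraries (log2 fold change 2.83 ± 0.43, adjusted p = 0.0028). Vim, a filament partner of reactive astrocytes that microglia and endothelium share, had 138, 249, 187 and 88.8 CPM in stroke libraries against 21.7, 20.0 and 19.5 CPM in sham libraries (log2 fold change 3.02 ± 0.59, adjusted p = 0.00603). Tgm1, a transglutaminase, had 12.9, 28.7, 21.4 and 9.35 CPM in stroke libraries against 0.138, 0.14 and 0.194 CPM in sham libraries, with 7 counts in all in the sham libraries. Timp1, an inhibitor of matrix proteases, had 5.06, 11.7, 8.81 and 4.61 CPM in stroke libraries against 0.761, 0.21 and 0.518 CPM in sham libraries. Lcn2, an iron-siderophore carrier, had 5.35, 9.49, 5.11 and 5.27 CPM in stroke libraries against 0.623, 0.0699 and 0.129 CPM in sham libraries. For Lcn2, 3 stroke libraries lay close together and replicate 2 above them (log2 fold change 4.50 ± 0.66, adjusted p = 0.00227). In the 7 fits without 1 library, Gfap, Vim, Tgm1 and Lcn2 kept their calls throughout, while Timp1 and Synm lost theirs in 1 to 5 of the 7, with a largest adjusted p between 0.0618 and 0.293, reached without sham replicate 1 or sham replicate 2. Synm passed in 2 of the 7. Lcn2 had a log2 fold change of 5.86 without sham replicate 1. Synm had a log2 fold change of -0.15 without sham replicate 1. The count of reactive genes lay between 5 and 16.

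Of 24 homeostatic astrocyte genes, Aqp4 and Slco1c1 were called higher and Glul, Gjb6, Etnppl and Ppp1r3g lower. Among all genes, 5.1% were called higher and 2.57% lower. Aqp4, the water channel of astrocyte endfeet, had 253, 342, 275 and 307 CPM in stroke libraries against 142, 171 and 137 CPM in sham libraries, with no overlap (log2 fold change 0.97 ± 0.17, adjusted p = 0.00289). Glul, glutamine synthetase, which clears glutamate taken up from synapses, had 1339, 1337, 1296 and 1356 CPM in stroke libraries against 1626, 1659 and 1596 CPM in sham libraries (log2 fold change -0.29 ± 0.07, adjusted p = 0.0184). Gjb6, connexin 30 of the astrocyte network, had 45.8, 45.3, 45.1 and 51.7 CPM in stroke libraries against 60.7, 68.3 and 67.6 CPM in sham libraries (log2 fold change -0.48 ± 0.08, adjusted p = 0.00289). Etnppl, a phospholyase of phosphoethanolamine, had 12.2, 9.11, 6.43 and 10.5 CPM in stroke libraries against 27.5, 20.3 and 27.4 CPM in sham libraries (log2 fold change -1.38 ± 0.26, adjusted p = 0.00493). Ppp1r3g, a subunit that targets a phosphatase to glycogen, had 5.49, 4.14, 4.67 and 5.73 CPM in stroke libraries against 10.9, 9.51 and 9.13 CPM in sham libraries. None of these 4 had a stroke library at the sham level. Aldh1l1, a marker of all astrocytes, had 93.5, 109.6, 92 and 101 CPM in stroke libraries against 88.2, 90.7 and 85.9 CPM in sham libraries and did not pass (adjusted p = 0.606). Over the fits that each lacked 1 library, Aqp4, Gjb6, Etnppl and Ppp1r3g kept their calls throughout, while Slco1c1 and Glul lost theirs in 4 to 5 of the 7, with a largest adjusted p between 0.0732 and 0.164, reached without sham replicate 1. Slco1c1 passed in 2 of the 7. The counts lay between 1 and 2 higher and between 3 and 5 lower.

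Lipid handling genes changed in both directions. Of 21 lipid storage and efflux genes, 6 were called higher and 2 lower. Fabp7, a fatty acid binding protein of glia, had 56.3, 81.4, 65.6 and 41.1 CPM in stroke libraries against 12.7, 13.6 and 9.26 CPM in sham libraries (log2 fold change 2.37 ± 0.39, adjusted p = 0.00289). Ch25h, which makes 25-hydroxycholesterol, had 4.71, 8.47, 7.57 and 2.17 CPM in stroke libraries against 0.761, 0.49 and 0.712 CPM in sham libraries, and Cd36 and Lpl, a fatty acid transporter and lipoprotein lipase, had log2 fold changes of 2.43 ± 0.64 and 0.70 ± 0.18. Plin4, a lipid droplet coat gene, had 3.09, 5.03, 3.08 and 3.88 CPM in stroke libraries against 22.8, 9.09 and 17.3 CPM in sham libraries. Mgll, the lipase of 2-arachidonoylglycerol, had 209.5, 206, 185 and 232 CPM in stroke libraries against 272, 283 and 254 CPM in sham libraries. Both were lower in every stroke library, with log2 fold changes of -2.11 ± 0.38 for Plin4 and -0.37 ± 0.09 for Mgll. Of 24 cholesterol synthesis genes, 3 were called higher, beside 5.1% of all genes. Among them were Sqle and Nsdhl by small amounts, with log2 fold changes of 0.37 ± 0.08 and 0.27 ± 0.08. Hmgcs1, an early enzyme of the pathway, had 0.14 ± 0.07 and did not pass. Under the omission of single libraries, Fabp7 and Plin4 kept their calls throughout, while Ch25h, Cd36, Lpl, Mgll, Sqle and Nsdhl lost theirs in 2 to 6 of the 7, with a largest adjusted p between 0.0678 and 0.161, reached without sham replicate 1, sham replicate 2 or sham replicate 3. Nsdhl passed in 1 and Cd36 in 2 of the 7. Called higher were 1 to 6 lipid storage genes and 0 to 2 cholesterol synthesis genes, and 1 to 2 lipid storage genes were called lower.

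Iron genes were called higher in 4 of 19 cases, beside 5.1% of all genes: Lcn2, Hmox1, Slc11a1 and Steap4. Hmox1, haem oxygenase, which frees iron from haem, had 11.5, 22.9, 23.6 and 11.7 CPM in stroke libraries against 4.36, 4.83 and 3.5 CPM in sham libraries, and replicates 2 and 3 were about alike (log2 fold change 2.04 ± 0.53, adjusted p = 0.0224). Slc11a1, an iron and manganese exporter of phagosomes, had 5.42, 10.5, 9.16 and 4.08 CPM in stroke libraries against 2.21, 1.89 and 1.62 CPM in sham libraries (log2 fold change 1.93 ± 0.53, adjusted p = 0.0285). Tfrc, the transferrin receptor, had 196, 179, 184 and 204 CPM in stroke libraries against 238, 220.2 and 202 CPM in sham libraries, with overlapping groups, and did not pass. The haemoglobin gene Hbb-bs had 96.7, 133, 144 and 129.7 CPM in stroke libraries against 101, 80.9 and 86 CPM in sham libraries, with sham replicate 1 above the lowest stroke library, and did not pass (adjusted p = 0.212). Across the 7 fits with 6 libraries of the comparison, Lcn2 kept its call throughout, while Hmox1, Slc11a1 and Steap4 lost theirs in 5 to 6 of the 7, with a largest adjusted p between 0.0989 and 0.2, reached without sham replicate 3. Steap4 passed in 1 and Hmox1 and Slc11a1 in 2 of the 7. Lcn2 had a log2 fold change of 5.86 without sham replicate 1. The count of iron genes lay between 1 and 5.

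Lists of cell stress genes held called members in both directions, set against 5.1% higher and 2.57% lower among all genes. Of 20 oxidative stress response genes, Nfe2l2, the factor NRF2 itself, was called higher (24, 35.3, 31.1 and 21.6 CPM in stroke libraries against 15, 15 and 14.2 CPM in sham libraries). Of 22 heat shock and unfolded protein genes, Atf3 and Hsp90b1 were called higher and Atf4 lower. Atf3, an injury-induced factor, had 3.8, 6.05, 5.99 and 1.91 CPM in stroke libraries against 0.968, 0.56 and 0.841 CPM in sham libraries (log2 fold change 2.47 ± 0.61, adjusted p = 0.0179). Hsp90b1, a chaperone of the endoplasmic reticulum, had 367, 383, 449 and 381 CPM in stroke libraries against 306, 346 and 325 CPM in sham libraries, a log2 fold change of 0.28 ± 0.07. Atf4, the factor of the integrated stress response, had 119, 106, 112 and 128 CPM in stroke libraries against 135, 154 and 143 CPM in sham libraries (log2 fold change -0.31 ± 0.07, adjusted p = 0.0114). Of 24 hypoxia and glycolysis genes, Hk2, Hk3, Pfkfb4 and Hif1a were called higher and Pkm lower. Hk2, an inducible hexokinase, had 8.3, 12.6, 12.2 and 7.77 CPM in stroke libraries against 4.36, 3.85 and 3.11 CPM in sham libraries. Hif1a, the hypoxia-inducible factor, had 154, 153, 173 and 152 CPM in stroke libraries against 119.7, 129 and 124 CPM in sham libraries. Pkm, pyruvate kinase, had 1308, 1308, 1208 and 1382 CPM in stroke libraries against 1531, 1578 and 1495 CPM in sham libraries (log2 fold change -0.24 ± 0.07, adjusted p = 0.0438). With 1 library left out at a time, Nfe2l2, Atf3, Hsp90b1, Atf4, Hk2, Hk3, Pfkfb4, Hif1a and Pkm lost their calls in 1 to 6 of the 7, with a largest adjusted p between 0.0603 and 0.154, reached without sham replicate 1, sham replicate 2, sham replicate 3, stroke replicate 2 or stroke replicate 3. Hif1a and Pkm passed in 1 and Nfe2l2 and Hk3 in 2 of the 7. The higher counts lay between 0 and 1 for oxidative stress, 0 and 3 for heat shock and 0 and 5 for hypoxia genes.

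Transcription factors of the STAT3, SOCS and C/EBP list were called higher in 4 of 22 cases: Spi1, Runx1, Stat3 and Elf4. Spi1, the factor PU.1 of myeloid cells, had 4.08, 8.02, 7.57 and 5 CPM in stroke libraries against 2.63, 1.68 and 1.81 CPM in sham libraries (log2 fold change 1.59 ± 0.39, adjusted p = 0.0167). Stat3, which drives astrocyte reactivity, had 69.1, 83, 75.7 and 54.3 CPM in stroke libraries against 45.1, 40.6 and 40.5 CPM in sham libraries (log2 fold change 0.75 ± 0.23, adjusted p = 0.0494). Of 22 immediate early genes, only Jun was called higher, which is near the 5.1% of all genes called higher. Jun had 36.9, 37.1, 33.6 and 30.3 CPM in stroke libraries against 18.9, 21.1 and 21.2 CPM in sham libraries (log2 fold change 0.76 ± 0.13, adjusted p = 0.00317). The activity-dependent synaptic gene Arc had 182, 234, 208 and 149 CPM in stroke libraries against 187, 258 and 375 CPM in sham libraries and did not pass (adjusted p = 0.31). Of 18 S100 and annexin genes, 5 were called higher, among them S100a4, a motility protein of macrophages, with 5.2, 9.49, 7.66 and 4.41 CPM in stroke libraries against 0.968, 0.909 and 1.29 CPM in sham libraries, and S100a16, with 49.6, 72.2, 50.4 and 45.1 CPM in stroke libraries against 29.8, 33.9 and 28.2 CPM in sham libraries. When each library in turn was left out, Jun kept its call throughout, while Spi1, Runx1, Stat3, Elf4, S100a4 and S100a16 lost theirs in 3 to 6 of the 7, with a largest adjusted p between 0.0728 and 0.172, reached without sham replicate 1, sham replicate 2 or sham replicate 3. Stat3 passed in 1 and Runx1 and Elf4 in 2 of the 7. Between 0 and 4 of the STAT3 list, 1 and 1 of the immediate early genes and 0 and 6 of the S100 list were called higher in these fits.

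Some matrix remodelling genes were higher after stroke. Of 32 scar matrix genes, 10 were called higher (median log2 fold change 1.23), beside 5.1% of all genes. Timp2, an inhibitor of matrix metalloproteases, had 119, 119, 104 and 121 CPM in stroke libraries against 79.1, 68.3 and 81 CPM in sham libraries, and the stroke libraries spanned 104 to 121 CPM (log2 fold change 0.60 ± 0.14, adjusted p = 0.0127). Thbs1, thrombospondin 1, had 19.1, 35.1, 37.7 and 9.68 CPM in stroke libraries against 1.04, 2.38 and 1.94 CPM in sham libraries. Its replicates 2 and 3 were more than 1.5 times as high as replicates 1 and 4. Mmp12, the macrophage elastase, had 108 counts in the 4 stroke libraries and 1 in the 3 sham libraries. Of 19 collagen genes edgeR called none in either direction, 5 were higher at an unadjusted p below 0.05, and DESeq2 called 4 and voom 1. The list had a median log2 fold change of 0.49, and 11 had all stroke libraries above all sham libraries, against 14.9% of all genes. Fn1, fibronectin, had 69.8, 91.3, 129 and 44.3 CPM in stroke libraries against 31.7, 29 and 31.8 CPM in sham libraries and did not pass (adjusted p = 0.13). In the 7 fits without 1 library, Timp2, Thbs1 and Mmp12 lost their calls in 1 to 5 of the 7, with a largest adjusted p between 0.082 and 0.131, reached without sham replicate 1 or sham replicate 2. Thbs1 passed in 2 of the 7. The count of scar matrix genes lay between 0 and 14, lowest without sham replicate 2.

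Some vessel genes were higher and 1 lower, beside 5.1% and 2.57% of all genes. Of 22 blood-brain barrier genes, Itm2a was called higher and Mfsd2a lower. Itm2a, an endothelial membrane protein gene, had 34.9, 39.6, 36.5 and 40.6 CPM in stroke libraries against 22.8, 29 and 26.2 CPM in sham libraries (log2 fold change 0.54 ± 0.11, adjusted p = 0.00524). Mfsd2a, which carries omega-3 lipids and restrains transcytosis, had 8.65, 7.77, 9.25 and 8.95 CPM in stroke libraries against 17.4, 11.3 and 12.9 CPM in sham libraries (log2 fold change -0.69 ± 0.18, adjusted p = 0.0224). Cldn5, the tight junction claudin, had 23.9, 28.5, 25.3 and 33 CPM in stroke libraries against 22.3, 22.2 and 21.2 CPM in sham libraries. Pecam1 had 31.1, 40.9, 35 and 31.8 CPM in stroke libraries against 27.7, 26.8 and 24 CPM in sham libraries. Their stroke libraries exceeded their sham libraries, and neither passed (adjusted p = 0.522 and 0.477). Of 20 genes of activated endothelium and angiogenesis, Angpt1, Vcam1, Vwf and Ackr1 were called higher. Angpt1, a ligand that stabilises vessels, had 15.7, 12.7, 14.3 and 13.4 CPM in stroke libraries against 5.88, 8.11 and 6.21 CPM in sham libraries (log2 fold change 1.05 ± 0.22, adjusted p = 0.00689). Vwf, of the von Willebrand factor, had 28, 35.3, 49 and 16.2 CPM in stroke libraries against 7.19, 7.06 and 8.48 CPM in sham libraries. Of 17 fibroblast and pericyte genes, Des and Kcnj8, which mark pericytes, were called higher, with log2 fold changes of 1.16 ± 0.33 and 0.83 ± 0.25. Over the fits that each lacked 1 library, Itm2a and Angpt1 kept their calls throughout, while Mfsd2a, Vcam1, Vwf, Des and Kcnj8 lost theirs in 3 to 6 of the 7, with a largest adjusted p between 0.113 and 0.188, reached without sham replicate 1 or sham replicate 3. Des and Kcnj8 passed in 1 and Vcam1 and Vwf in 2 of the 7. The higher counts lay between 1 and 2 for barrier, 1 and 4 for activated endothelium and 0 and 4 for fibroblast and pericyte genes.

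Neuron and oligodendrocyte lists had no member called by edgeR, though some of their list means did not overlap with sham. That held for 20 excitatory neuron, 18 cortical layer, 20 inhibitory neuron, 21 neuropeptide, 26 ion channel, 20 myelin and 13 oligodendrocyte precursor genes tested, with median log2 fold changes of -0.12, 0.07, -0.04, -0.12, -0.10, -0.00 and 0.34. Over the 132 genes of these lists, 8 were higher and 23 lower at an unadjusted p below 0.05, DESeq2 called 1 higher and 6 lower, and voom called 8 and 15. With 1 library left out, edgeR called at most 1 gene lower in each of the excitatory neuron, cortical layer and inhibitory neuron lists. In those fits it called at most 1 gene higher in each of the myelin and precursor lists. The excitatory neuron list mean lay -0.08, -0.30, -0.22 and -0.13 log2 units from the sham mean in stroke replicates 1 to 4. It was 0.04, -0.07 and 0.03 in the sham libraries, without overlap. The precursor list mean was 0.34, 0.32, 0.41 and 0.15 against 0.06, -0.11 and 0.05, also without overlap. Stroke was lower without overlap for 7 of 20 excitatory neuron genes, against 11.6% of all genes. It was higher without overlap for 8 of 13 precursor genes, against 14.9%. Slc17a7, the vesicular glutamate transporter of cortical excitatory neurons, had 529.6, 453, 433 and 528 CPM in stroke libraries against 523, 454 and 467 CPM in sham libraries. Its groups overlapped, and this marker of the labelled tissue was present in all 7 libraries. Camk2a, a kinase of excitatory synapses, had 885, 709, 707 and 772 CPM in stroke libraries against 1079.6, 979 and 958 CPM in sham libraries. Snap25, of the vesicle fusion machinery, had 2533, 2216, 2176 and 2787 CPM in stroke libraries against 3034, 3178 and 2878 CPM in sham libraries. Both were lower in every stroke library and neither passed (adjusted p = 0.176 and 0.159). Pvalb, of fast-spiking interneurons, had 56.8, 49.8, 43.9 and 57.5 CPM in stroke libraries against 66.6, 82.1 and 72.2 CPM in sham libraries (adjusted p = 0.0521), whereas Gad2, which makes GABA, had 121, 140.2, 149 and 127 CPM in stroke libraries against 109.6, 85.3 and 119 CPM in sham libraries (adjusted p = 0.286). Mbp, the myelin basic protein gene, had 1339, 1768, 1376 and 1356 CPM in stroke libraries against 1729, 1822 and 1602 CPM in sham libraries, with stroke replicate 2 apart from the other 3 and within the sham range.

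**Figure D4:**
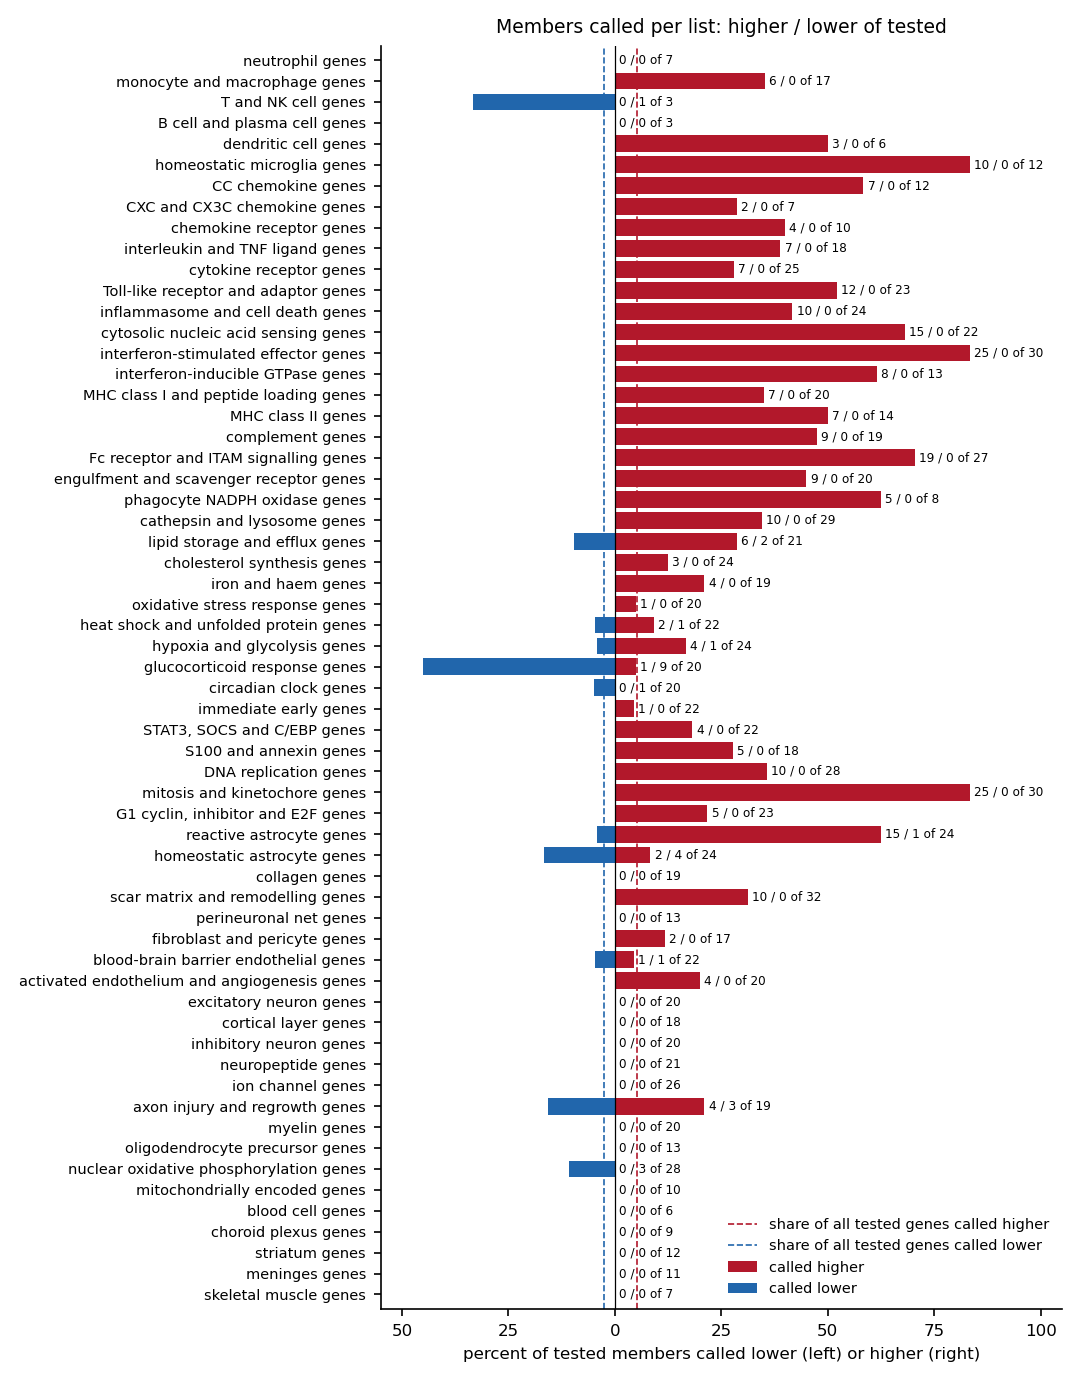
Percent of tested members called higher (right, red) and lower (left, blue) for each of 60 gene lists, with counts higher / lower of tested beside the bars and dashed lines at the shares of all 16325 genes called higher (5.1%) and lower (2.57%). Mitosis, interferon effector and homeostatic microglia lists reach the largest shares higher, and the glucocorticoid list has 9 of 20 members lower. The excitatory neuron, cortical layer, inhibitory neuron, neuropeptide, ion channel, myelin and collagen lists have none in either direction by edgeR. The axon injury and regrowth list has 4 higher and 3 lower.

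Genes called lower included highly counted neuronal ones, by small amounts. Kif5a, a neuronal kinesin heavy chain of axonal transport, had 2549.6, 2434, 2054 and 2642 CPM in stroke libraries against 3001, 3215 and 3074 CPM in sham libraries (log2 fold change -0.36 ± 0.08, adjusted p = 0.00833). Calm3, a calmodulin gene, had 1693, 1459, 1474 and 1738 CPM in stroke libraries against 2089.8, 2104 and 1955 CPM in sham libraries. Camkk1, a calmodulin-dependent kinase kinase, had 119, 97.2, 104 and 115 CPM in stroke libraries against 194, 176 and 177 CPM in sham libraries (log2 fold change -0.75 ± 0.11, adjusted p = 0.00227). Lynx1, a modulator of nicotinic receptors, had 382, 384, 363 and 454 CPM in stroke libraries against 551, 614 and 557 CPM in sham libraries. In each of these genes all stroke libraries lay below all sham libraries. Of 19 axon injury and regrowth genes, Jun, Lif, Atf3 and Ecel1 were called higher and Stmn4, Nefl and Mapt lower. Nefl, the light neurofilament gene, had 489, 404, 459 and 534 CPM in stroke libraries against 653, 702 and 661 CPM in sham libraries (log2 fold change -0.51 ± 0.11, adjusted p = 0.0085). Mapt, of the protein tau, had 366, 346, 327 and 348 CPM in stroke libraries against 425, 414 and 406 CPM in sham libraries. Gap43, of growth cones, had 187, 179, 164 and 185 CPM in stroke libraries against 158, 149.9 and 143 CPM in sham libraries and did not pass (adjusted p = 0.207). Of 28 nuclear oxidative phosphorylation genes, Ndufb8, Ndufv1 and Atp5a1 were called lower, with log2 fold changes of -0.24 ± 0.07, -0.21 ± 0.06 and -0.20 ± 0.06. Under the omission of single libraries, Kif5a, Camkk1, Lynx1 and Nefl kept their calls throughout, while Calm3, Mapt, Stmn4, Ecel1, Ndufb8, Ndufv1 and Atp5a1 lost theirs in 4 to 7 of the 7, with a largest adjusted p between 0.0938 and 0.186, reached without sham replicate 1, sham replicate 2, stroke replicate 2 or stroke replicate 3. Ecel1 passed in 0, Mapt and Ndufv1 in 1 and Ndufb8 and Atp5a1 in 2 of the 7. Of the axon list 2 to 3 genes were called higher and 1 to 3 lower, and of the oxidative phosphorylation list 0 to 5 were called lower.

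The lower genes with the largest fold changes had varied roles. Emx1, a homeobox factor of cortical neurons and glia, had 12.2, 5.79, 8.19 and 13.7 CPM in stroke libraries against 20.4, 16.8 and 15.6 CPM in sham libraries (log2 fold change -0.82 ± 0.20, adjusted p = 0.0155). Cbln2, a secreted organiser of synapses, had 39.5, 35.7, 37.4 and 40.2 CPM in stroke libraries against 62, 73.1 and 62.1 CPM in sham libraries (log2 fold change -0.78 ± 0.22, adjusted p = 0.0324). Prodh, proline dehydrogenase, had 22.8, 18.9, 21.5 and 27.8 CPM in stroke libraries against 34.3, 38.7 and 43.6 CPM in sham libraries (log2 fold change -0.77 ± 0.14, adjusted p = 0.00345). Wnt10a, a Wnt ligand, had 5.84, 5.35, 5.37 and 5.6 CPM in stroke libraries against 19.5, 7.76 and 9 CPM in sham libraries, with sham replicate 1 more than 2 times as high as the other sham libraries. Across the 7 fits with 6 libraries of the comparison, Prodh kept its call throughout, while Emx1, Cbln2, Wnt10a, Kcnk4 and Alox12b lost theirs in 1 to 6 of the 7, with a largest adjusted p between 0.0889 and 0.118, reached without sham replicate 1, sham replicate 2 or stroke replicate 2. Cbln2 and Alox12b passed in 1 and Kcnk4 in 2 of the 7. Wnt10a had a log2 fold change of -0.60 without sham replicate 1. Kcnk4, a mechanosensitive potassium channel, and Alox12b, a lipoxygenase, had log2 fold changes of -0.78 ± 0.22 and -0.92 ± 0.26. One identifier without a symbol, ENSMUSG00000045999, stood apart for its level, was picked after its values were seen and had 1860.2, 1055, 1561 and 1722 CPM in stroke libraries against 3447, 5946 and 4815 CPM in sham libraries (log2 fold change -1.61 ± 0.38, adjusted p = 0.0146). With 1 library left out at a time, ENSMUSG00000045999 lost its call in 2 of the 7, with a largest adjusted p of 0.069, without sham replicate 2.

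Genes that glucocorticoids induce made up the lower list with the most calls, 9 of 20 tested, against 2.57% of all genes, and 1 was called higher, Lcn2 (median log2 fold change -0.42). Tsc22d3, the leucine zipper gene GILZ that mediates effects of the glucocorticoid receptor, had 66.5, 76.2, 78.1 and 85.2 CPM in stroke libraries against 156, 137 and 131 CPM in sham libraries. All stroke libraries lay well below all sham libraries (log2 fold change -0.89 ± 0.12, adjusted p = 0.000979). Ddit4, an inhibitor of mTOR signalling, had 18.8, 19.2, 19 and 18.1 CPM in stroke libraries against 32, 23.9 and 23.2 CPM in sham libraries (log2 fold change -0.49 ± 0.11, adjusted p = 0.0113). Arrdc2, an arrestin-related gene, had 7.74, 8.92, 7.75 and 7.24 CPM in stroke libraries against 14.7, 11.4 and 14.9 CPM in sham libraries (log2 fold change -0.79 ± 0.17, adjusted p = 0.00746), and Plin4, given above, is a member too. Sult1a1, a phenol sulfotransferase, had 6.12, 5.16, 6.25 and 6.78 CPM in stroke libraries against 9.48, 9.72 and 13.1 CPM in sham libraries, and the kinase gene Sgk1 had 69.1, 99.7, 89.5 and 83.9 CPM in stroke libraries against 145, 102 and 113 CPM in sham libraries and did not pass (adjusted p = 0.124). Per3, of the circadian clock, had 40.6, 33.7, 38.8 and 40.2 CPM in stroke libraries against 69.7, 45.4 and 45.6 CPM in sham libraries and was the single lower gene of 20 clock genes (log2 fold change -0.48 ± 0.13, adjusted p = 0.0202). The list's mean log2 CPM lay -0.29, -0.08, -0.28 and -0.29 log2 units from the sham mean in stroke replicates 1 to 4 and 0.31, -0.26 and -0.05 in sham replicates 1 to 3, so the list means overlapped. Sham replicate 1 was the highest library for Tsc22d3, Plin4, Ddit4, Sgk1 and Per3. Without sham replicate 1, 4 members were called lower, beside 84 genes called lower in all in that fit, against 9 and 420 with every library. When each library in turn was left out, Tsc22d3, Arrdc2 and Plin4 kept their calls throughout, while Ddit4, Sult1a1 and Per3 lost theirs in 1 to 2 of the 7, with a largest adjusted p between 0.0894 and 0.243, reached without sham replicate 1 or sham replicate 3. Per3 had a log2 fold change of -0.25 without sham replicate 1.

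**Figure D5:**
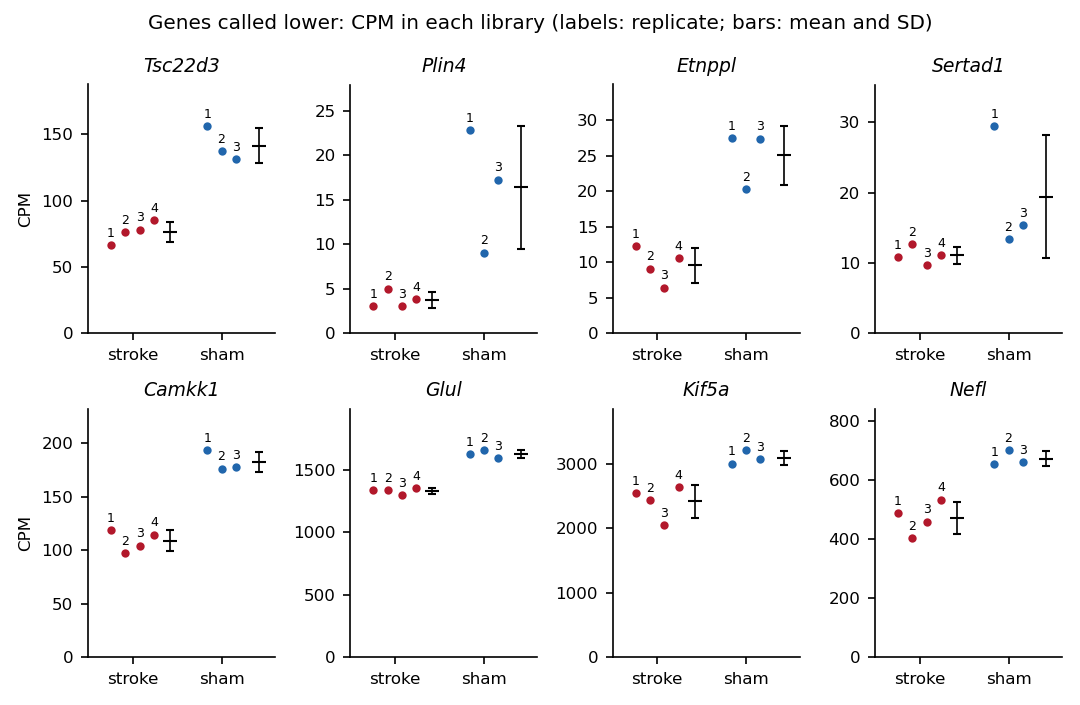
CPM of 8 genes called lower in each library, 4 stroke libraries (left, red) and 3 sham libraries (right, blue), with replicate numbers above the points and the mean and SD as black bars; each axis starts at 0. The groups do not overlap in any panel, sham replicate 1 stands high for Plin4 and Sertad1, and the highly counted Kif5a and Glul differ by small fractions of their level.

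Markers of tissue next to the cortex differed between single libraries. Ttr, transthyretin of the choroid plexus, had 1.62, 9.93, 10.2 and 1.32 CPM in stroke libraries against 5.05, 71 and 2.65 CPM in sham libraries. Sham replicate 2 alone was far above the rest, and the gene was not called (adjusted p = 0.538). Of 9 choroid plexus, 11 meninges, 7 skeletal muscle and 6 blood cell genes tested, edgeR called none in either direction. At an unadjusted p below 0.05, 4 of the 33 were higher and 1 lower, and DESeq2 and voom each called 2 meninges genes higher and 1 muscle gene lower, as did edgeR without stroke replicate 4. The summed levels of the lists were 279 to 325 CPM in stroke and 343 to 460.1 CPM in sham libraries for choroid plexus, 529 to 637 CPM in stroke and 513 to 683 CPM in sham libraries for meninges, 56.4 to 71.5 CPM in stroke and 80.7 to 95.1 CPM in sham libraries for muscle and 155 to 221 CPM in stroke and 134 to 160.1 CPM in sham libraries for blood cells. The choroid plexus and muscle sums were lower in every stroke library, and those of meninges and blood cells overlapped. The mean log2 CPM of the meninges genes, in contrast, lay 0.44, 0.73, 0.55 and 0.44 log2 units above the sham mean in stroke replicates 1 to 4, without overlap (-0.11, 0.24 and -0.13 in the sham libraries), while the means of choroid plexus and muscle genes overlapped. The part of the dissection or of meninges in these and other results was not tested. Igfbp2, a growth factor binding protein of meninges, had 54.4, 76.1, 46.9 and 44.3 CPM in stroke libraries against 26.8, 36.8 and 26.1 CPM in sham libraries (adjusted p = 0.0552). Without sham replicate 2, 189 genes were called higher and 135 lower, and without sham replicate 3, 220 and 245.

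The most similar comparison in the series is stroke against sham on the high-fat diet, which shares no library with this one. The difference between the 2 stroke effects, control minus high-fat diet, passed for 0 of 16325 genes (0.0%) by edgeR's quasi-likelihood test, while 914 had an unadjusted p below 0.05. DESeq2 and limma with voom called 1 gene each, with 915 and 2333 genes at an unadjusted p below 0.05. That gene was Junb, a subunit of the factor AP-1, which had 61.8, 47.6, 58.6 and 42.6 CPM in stroke libraries against 69.1, 68.8 and 90.0 CPM in sham libraries on the control diet. Its log2 fold change was -0.53 ± 0.18 on the control diet and 0.75 ± 0.17 on the high-fat diet (adjusted p of the difference = 0.509 by edgeR). Fold changes had the same sign on both diets for 825 of the 833 genes called higher and 398 of the 420 called lower. The share with the same sign over all tested genes is not given here, so these counts are a description only. Among the 20 lower genes named by fold change, Sertad1, Ier5l and Fam43a had the other sign on the high-fat diet. Sertad1, a regulator of cyclin-dependent kinase 4, had 10.8, 12.7, 9.69 and 11.1 CPM in stroke libraries against 29.5, 13.4 and 15.4 CPM in sham libraries on the control diet. Its log2 fold change was -0.81 ± 0.19 there and 0.28 ± 0.18 on the high-fat diet. Ier5l had -0.73 ± 0.19 and 0.43 ± 0.18, and Fam43a -0.71 ± 0.19 and 0.04 ± 0.18. Gfap had log2 fold changes of 2.83 ± 0.43 on the control and 3.25 ± 0.43 on the high-fat diet, Tsc22d3 -0.89 ± 0.12 and -0.57 ± 0.11, and Camkk1 -0.75 ± 0.11 and -0.62 ± 0.10. Tsc22d3 does not stand for its whole list. For the 20 tested glucocorticoid response genes, log2 fold changes had medians of -0.42 (control diet) and -0.07 (high-fat diet). Whether these list medians differ beyond their spread was not tested. A difference that did not pass does not show that the diets act alike. In the 7 fits without 1 library, Sertad1, Ier5l and Fam43a lost their calls in 1 to 3 of the 7, with a largest adjusted p between 0.122 and 0.29, reached without sham replicate 1. Sertad1 had a log2 fold change of -0.38 without sham replicate 1. Fam43a had a log2 fold change of -0.37 without sham replicate 1.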

How the data were processed

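The authors deposited 1 table of raw counts per Ensembl gene for each of 26 libraries of mouse cortex total RNA; each holds 39179 genes and 5 summary entries, which were left out. Per the labels' protocols, RNA was extracted with Trizol, and libraries were made with a stranded total RNA kit and read in pairs. The submitters' processing notes name Trim Galore, STAR, featureCounts, HTSeq and mm9; their versions and roles, the filters and the strand setting are not given in the sources used here, so reads of overlapping genes may be shared. No coordinates of the count files were used, and promoter sequences are RefSeq's on GRCm38.p6.

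Counts were fitted with edgeR 4.0.16 in R 4.3.3 (TMM scaling, filterByExpr with a minimum count of 10, robust quasi-likelihood, all 26 libraries in 6 groups), with p-values adjusted over the 16325 genes kept. The summary entries held 45.7% to 54.9% of all counts in the 7 libraries; the share of counts outside genes used as a covariate is relative to counts in and outside genes. Settings tried instead were RLE scaling, DESeq2 1.42.0, voom in limma 3.58.1, no filter, a minimum count of 50, fewer libraries, a covariate and leaving out each library. On simulated counts the same fit recovered 52.2% of genes changed 1.5-fold, 73.1% at 2-fold and 92.4% at 4-fold, and 4.61% of its calls were false. The simulation changed 67, 67 and 66 of 16325 genes, up or down at random, in libraries drawn independently. The data had more calls, mostly higher, and stroke libraries in a shared order, so these rates need not hold for the calls above. Replicate pairs differed by more than sampling noise (chi-square per degree of freedom 4.57 to 13.1). The genes named were, per direction, up to 20 called genes with the largest fold change at a mean of at least 5 CPM and no overlap, up to 10 with the largest difference of CPM, per list up to 4 called members with the smallest p and up to 2 uncalled members with the highest mean, and cell type markers; others are marked as picked afterwards. The comparison, the 60 gene lists and these rules were chosen with earlier results of these data known, so a list's count is a description. Some genes are not reported here.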

Additional observations from a re-analysis of the deposited data

Results flagged for a closer look

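In the 4 stroke libraries, 1 value lay far from the other 3 for 13 of the named genes and 2 list means, out of 246 genes and lists looked at. With 4 values, chance alone sets 1 apart in about 1 of 20 independent groups. These genes and lists share libraries and members, so that rate need not hold here. Stroke replicate 2 was high for Lcn2 (9.49 CPM), Psmb8, a subunit of the immunoproteasome (16.1 CPM), Ifi209 (7.71 CPM), H2-K1 (87.0 CPM), H2-D1 (119 CPM) and Mbp (1768 CPM), and low for Ier5l (3.63 CPM). Stroke replicate 3 was high for Hif1a (173 CPM) and S100a8 (0.969 CPM) and low for Timp2 (104 CPM). Stroke replicate 4 was high for Cst3 (809.8 CPM) and Gjb6 (51.7 CPM) and low for Mertk (35.7 CPM). The mean log2 CPM of the glucocorticoid response genes was 4.43 in stroke replicate 2, above the other stroke libraries, and that of the axon injury and regrowth genes was 4.61 in replicate 4, below them. The part of single libraries in these values was not tested.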

How the results depend on the processing

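None of the 1253 calls (833 higher, 420 lower) changed sign in a setting that tested it, which was largely set by how these genes were chosen. Of them, 1153 were tested with a minimum count of 50, 1246 with the 6-week libraries and 1222 with the groups compared. Without a filter on low counts 767 genes were called (460 higher), with the share of counts outside genes as a covariate 534 (316 higher, 218 lower), from the 6-week libraries alone 2332 (1494 and 838), from the groups compared alone 2453 (1537 and 916), and with voom and quality weights 2860 (1676 and 1184). DESeq2 called 644 genes lower and 1792 in all. RLE scaling gave 1258 calls, a minimum count of 50 gave 1330, and removing mitochondrial, ribosomal RNA and haemoglobin genes gave 1287. Leaving out 1 library gave 303 to 1448 calls, 189 to 938 higher and 84 to 510 lower. The difference between diets gave 1 call with DESeq2 and 1 with voom, and 0 in the other settings. Of the named genes that were not called, Ttr had log2 fold changes of -2.7472 to 0.5535, Mertk -0.0941 to 0.0147 and Slc17a7 -0.0416 to 0.0772 with 1 library left out, and Slc17a7 had -0.0049 without the filter. No paired analysis was possible because the labels carry no replicate numbers. The cause of these changes was not tested. A smaller prior count, 0.5 in place of 2, moved 6 of 60 list means, those of lists with few counts. Genes with under about 10 counts in a group are at the limit of this depth.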

Other observations

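Most called genes code for proteins, as do most of the 16325 genes tested. Of 14597 protein-coding genes tested, 810 were called higher after stroke and 405 lower, near the 5.1% and 2.57% of all tested genes. Of 293 long intergenic non-coding RNA genes, 3 were called higher and 2 lower and of 314 antisense genes 3 and 1. H19, an imprinted non-coding RNA that is high in fetal tissue, was picked after its values were seen. It had 2.74, 5.92, 4.84 and 2.83 CPM in stroke libraries against 0.277, 0.21 and 0.324 CPM in sham libraries, with every stroke library above every sham library (log2 fold change 3.87 ± 0.80, edgeR adjusted p = 0.00746). Over the fits that each lacked 1 library, H19 kept its call throughout.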
